A study of Mus musculus with 9 samples.

Results

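The genes described here carry the unfolded protein response and the integrated stress response in mouse intestinal stem cells. They are 36 genes of the 46517 in the count tables, named by symbol as endoplasmic reticulum (ER) chaperones, sensors of unfolded protein, and the ATF4 branch with its targets. All 36 were found in the tables and all 36 passed the filter on low counts. The rule names genes by pathway and sets no threshold on their values, though it was written with earlier results of these data known.

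The cells were dissociated intestinal stem cells of mouse, placed in 1 of 3 gels and cultured for 4 days, with 3 libraries per gel. The first gel was Matrigel, a basement-membrane extract from a mouse tumour. The other 2 were synthetic polyethylene glycol (PEG) hydrogels, labelled non-degradable PEG and degradable PEG. All 3 groups received the same factors, namely R-spondin, noggin, EGF, the GSK3 inhibitor CHIR99021 and valproic acid, an inhibitor of histone deacetylases. There was no group without valproic acid, none with a drug that provokes ER stress, and none of freshly isolated cells, so each comparison is between gels under 1 shared medium. The labels give no strain, age or number of mice and do not say whether the libraries of a group came from separate cultures or animals. The p-values therefore measure the spread between these libraries, which may be technical. Each value is the level of an RNA in a whole culture, in which fewer cells of a type and less RNA per cell cannot be told apart.

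The ER folds and glycosylates secreted and membrane proteins. When unfolded protein builds up there, the sensors IRE1 (Ern1, and Ern2 in mucus-secreting epithelium), ATF6 and PERK (Eif2ak3) start programmes that raise chaperones, foldases and the machinery of ER-associated degradation. PERK and related kinases, which answer to other stresses such as amino acid shortage, also phosphorylate the initiation factor eIF2, which slows translation in general but lets Atf4 be translated. ATF4 then raises genes of amino acid supply and redox balance, the factor CHOP (Ddit3) and, through Ppp1r15a, the removal of the phosphate from eIF2. In the intestine this system is known for its role in Paneth and goblet cells, whose secretory load is high, and for its activity where stem cells leave the stem cell state.

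Libraries held 38016227 to 47211981 counts in genes, and 3.00% to 4.51% of these were mitochondrial. The stem cell gene Lgr5 was at 128 to 227 CPM (counts scaled to the size of the library) and the epithelial gene Epcam at 1081 to 1331 CPM over the libraries, and the defining blood gene Ptprc had no count in any. The 7 listed blood genes summed to 1.18 to 2.57 CPM over the libraries. The 9 listed mesenchymal genes summed to 125 to 274 CPM in Matrigel, 84.1 to 118 in non-degradable PEG and 92.7 to 158 in degradable PEG. A gene was called when its Benjamini-Hochberg adjusted p in edgeR's quasi-likelihood test was under 0.05, over 14870 genes tested. In non-degradable PEG against Matrigel, 9.71% of tested genes were called higher and 7.13% lower. In degradable PEG against Matrigel these shares were 7.42% and 4.79%, and in non-degradable against degradable PEG they were 0.814% and 0.464%. The median log2 fold change over all tested genes was between -0.02 and 0.00 in the 3 comparisons.

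Promoter sequences of the members are shown first, because the ER genes and the ATF4 genes of the set are classically read through different DNA elements. Whether a member holds an element was not used in any test below. The ER stress response element (ERSE; CCAAT, 9 bases of any kind, then CCACG) is known as the site of ATF6 with NF-Y, and ERSE-II (ATTGG, 1 base of any kind, then CCACG) and the UPR element TGACGTGG are sites of ATF6 and XBP1. The C/EBP-ATF response element (CARE; TGATGNAA) is known as the site of ATF4 with its partners. These were searched on both strands of the RefSeq promoters (GRCm38.p6), each of 300 bases from 250 before to 50 after the start. RefSeq entries were found for 32 members, but not for Hyou1, Manf, Ern2 and Atf6. ERSE was present in 0.119% of all 32851 promoters, and in a promoter of 0.137% of the 27025 genes with an entry. It was in 7 of the 32 members, all of them among the 12 chaperones and foldases with an entry. Below are the ERSE matches of the central chaperone Hspa5 and of 5 further chaperones, on the strand of the gene, with the element in capitals and 10 bases on each side; in Calr and Creld2 the element lies on the opposite strand and reads reversed.
Hspa5, chr2:34772015-34772053, + strand: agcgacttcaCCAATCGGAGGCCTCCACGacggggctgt
Canx, chr11:50325790-50325828, - strand: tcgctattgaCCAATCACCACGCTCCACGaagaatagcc
Pdia6, chr12:17266481-17266519, + strand: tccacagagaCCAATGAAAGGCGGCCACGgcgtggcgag
Dnajc3, chr14:118937817-118937855, + strand: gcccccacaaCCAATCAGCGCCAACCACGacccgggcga
Calr, chr8:84847065-84847103, - strand: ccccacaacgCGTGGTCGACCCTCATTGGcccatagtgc
Creld2, chr15:88819510-88819548, + strand: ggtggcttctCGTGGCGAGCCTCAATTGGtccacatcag
The chaperone Hsp90b1 held 2 ERSE matches within 144 bases, 1 on each strand, and is shown with both in capitals.
Hsp90b1, chr10:86705523-86705666, - strand: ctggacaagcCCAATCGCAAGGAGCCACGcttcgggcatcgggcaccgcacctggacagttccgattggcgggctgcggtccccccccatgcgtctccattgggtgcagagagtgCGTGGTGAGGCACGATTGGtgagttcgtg

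CARE was present in 3.97% of all promoters, in 4.51% of all genes with a promoter entry and in 5 of the 32 members. These were Chac1 and Trib3 among the effectors, the factor Nupr1, the asparagine synthetase gene Asns, and Herpud1. None of the 12 chaperones held one. The matches of Chac1, Nupr1 and Asns are shown because the first 2 genes rose in a PEG gel and the third did not, with CARE in capitals, reversed in Chac1 and Nupr1.
Chac1, chr2:119351039-119351066, + strand: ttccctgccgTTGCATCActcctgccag
Nupr1, chr7:126625563-126625590, - strand: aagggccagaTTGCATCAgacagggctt
Asns, chr6:7693215-7693242, - strand: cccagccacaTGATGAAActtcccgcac
ERSE-II was present in 0.0365% of all promoters, in 0.0444% of all genes with a promoter entry and in 2 members, Dnajb11 and Herpud1. Herpud1 was the 1 member with an element of both kinds, CARE on the opposite strand and ERSE-II on its own, and both are in capitals.
Herpud1, chr8:94386307-94386397, + strand: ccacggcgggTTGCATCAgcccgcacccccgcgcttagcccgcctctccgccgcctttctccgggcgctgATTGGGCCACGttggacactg
The UPR element was in 0.676% of all promoters, in 0.714% of all genes with a promoter entry and in none of the 32 members. A match in these letters is not a measured binding site.

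Over all members, 10 of 36 differed between the 3 gels, where 16.3% of tested genes did. They were Chac1, Ppp1r15a, Ddit3, Ddit4, Nupr1, Atf4 and Trib3, which belong to the integrated stress response, and the ER genes Pdia3, Sel1l and Ern2. In non-degradable PEG, 6 of 36 members rose against Matrigel (Chac1, Ppp1r15a, Ddit3, Trib3, Ddit4 and Xbp1) and 1 fell (Pdia3), with a median log2 fold change of 0.06 over the 36. In degradable PEG, 6 rose (Chac1, Ppp1r15a, Ddit3, Nupr1, Atf4 and Ddit4) and 3 fell (Ern2, Sel1l and Pdia3), and the median was 0.00; with upper-quartile scaling of the libraries this split was 10 higher and 2 lower. Members called were 19.4% in non-degradable PEG, near the 16.8% of all tested genes, and 25% in degradable PEG against 12.2%. Both comparisons use the same 3 Matrigel libraries, so the 2 calls on a gene are not independent. Every factor or effector of the integrated stress response that was called in either comparison was higher in PEG. No chaperone was higher in the main fit, which had no replicate block, but the chaperone Dnajb9 was called higher under some alternatives.

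Leaving out single libraries moved the count for non-degradable PEG from 7 members to 4 without its replicate 1 and to 3 without its replicate 3. In that comparison same-numbered libraries deviated together, and with the replicate number as a block 11 members were called, 8 higher and 3 lower, while the count over all genes went from 2504 to 3877. The 4 members gained were Nupr1 (adjusted p = 0.0451), Dnajb9 (0.0307), Ern2 (0.00402, lower) and Pdia4 (0.0367, lower) in edgeR's blocked fit. In degradable PEG against Matrigel, 2 of 3 same-numbered pairs correlated above 0.1, and all 6 libraries correlated best with their own number. There the block took the count from 9 members to 15, 10 higher and 5 lower.

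**Figure D1:**
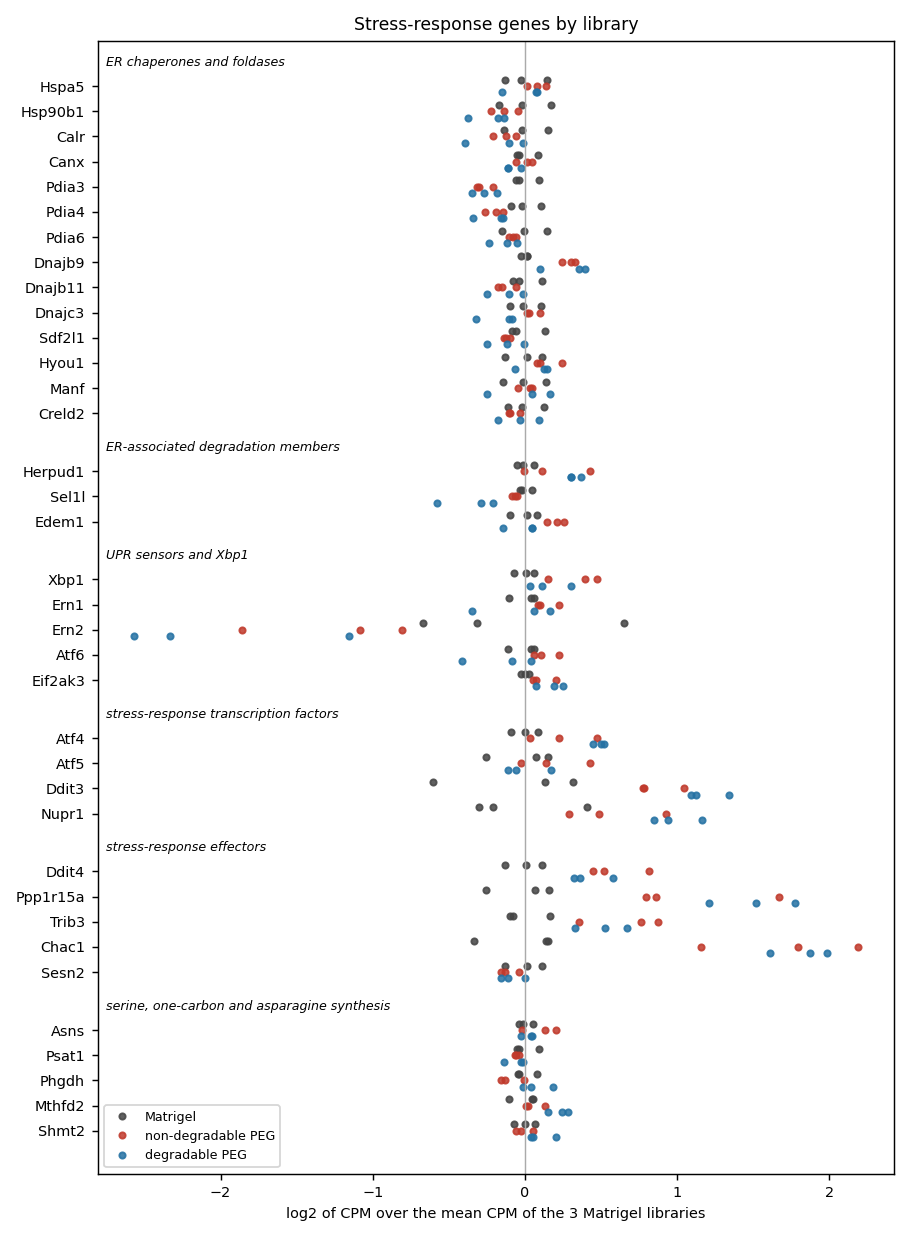
The 36 members (rows, by role) with 1 point for each of the 9 libraries, coloured by gel; the horizontal axis is the log2 of CPM over the gene's mean CPM in the 3 Matrigel libraries. Chac1, Ppp1r15a and Ddit3 are above the Matrigel mean in all 6 PEG libraries, Ern2 is below it in all 6, and points of most chaperones from the 3 gels overlap.

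**Figure D2:**
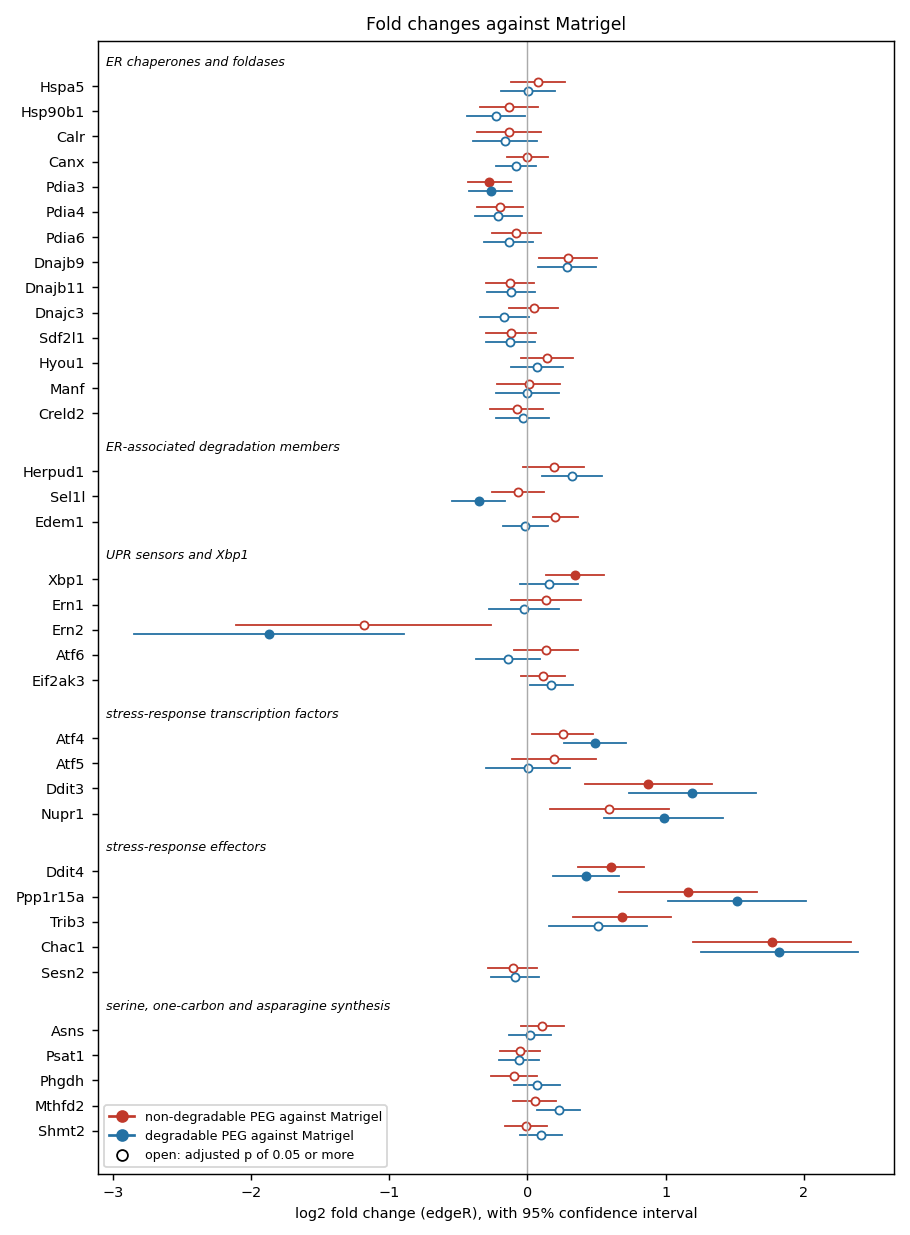
Log2 fold change of each member (horizontal axis, with 95% interval) in non-degradable and degradable PEG against Matrigel; filled points passed an adjusted p of 0.05 in edgeR. Chac1 has the highest estimate in both gels and Ern2 the lowest, and the intervals of most chaperones span 0.

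The effectors are the genes through which the stress response acts on translation, growth signalling and redox state. Of the 5, 4 rose in non-degradable PEG (Chac1, Ppp1r15a, Trib3 and Ddit4; list median 0.68) and 3 in degradable PEG (Chac1, Ppp1r15a and Ddit4; list median 0.51). Their summed level was 163 to 180 CPM in the Matrigel libraries, 234 to 263 in non-degradable PEG and 221 to 257 in degradable PEG, most of which was Ddit4.

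Chac1 (chr2:119351229-119354381, + strand, GRCm38) encodes an enzyme that degrades glutathione and is a well known ATF4 and CHOP target. It was at 1.13, 1.58 and 1.56 CPM in the Matrigel libraries (replicates 1, 2 and 3, the order used throughout), 4.94, 3.18 and 6.49 in non-degradable PEG, and 4.34, 5.22 and 5.63 in degradable PEG. The lowest PEG library was thus above the highest Matrigel library, and the spread was widest in non-degradable PEG. The log2 fold change was 1.77 ± 0.259 (SE, n = 3 against 3; edgeR adjusted p = 0.00117) in non-degradable PEG and 1.82 ± 0.259 (edgeR adjusted p = 0.00118) in degradable PEG, about 3.41-fold and 3.54-fold. Counts behind these values were 44 to 283 reads per library.

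Ppp1r15a (chr7:45522916-45526268, - strand), also called GADD34, is the subunit that brings a phosphatase to eIF2 and so ends the block on translation. Its levels were 11.0, 13.9 and 14.7 CPM in Matrigel, 23.9, 22.9 and 42.0 in non-degradable PEG, and 30.5, 37.9 and 45.1 in degradable PEG. No PEG library overlapped the Matrigel range, and replicate 3 of non-degradable PEG lay within the range of the degradable gel. The log2 fold changes were 1.16 ± 0.227 (edgeR adjusted p = 0.006) and 1.52 ± 0.228 (edgeR adjusted p = 0.00156). Ppp1r15a overlaps Tulp2 on the opposite strand by 717 bases, but Tulp2 had at most 209 counts in a library where Ppp1r15a had at least 431.

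Ddit4 (REDD1), an inhibitor of the growth kinase mTORC1 that also answers to low oxygen and glucocorticoids, was the most abundant effector. It was at 116, 108 and 98.4 CPM in Matrigel, 154, 189 and 147 in non-degradable PEG, and 138, 161 and 135 in degradable PEG. All 6 PEG libraries were above all 3 Matrigel libraries. The log2 fold change was 0.60 ± 0.108 in non-degradable PEG (edgeR adjusted p = 0.00384) and 0.42 ± 0.108 in degradable PEG (edgeR adjusted p = 0.0265). The second call was lost without Matrigel replicate 2 (0.0739) or 3 (0.106) and without degradable PEG replicate 2 (0.0853), adjusted p in edgeR.

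Trib3, a pseudokinase that binds ATF4 and CHOP and restrains AKT, was at 5.10, 5.01 and 6.01 CPM in Matrigel, 9.11, 6.88 and 9.86 in non-degradable PEG, and 6.76, 7.72 and 8.53 in degradable PEG. The groups did not overlap with Matrigel in either gel. Its log2 fold change of 0.68 ± 0.161 passed in non-degradable PEG (edgeR adjusted p = 0.0158) and its 0.51 ± 0.162 in degradable PEG did not (edgeR adjusted p = 0.0623). The first call was lost without Matrigel replicate 1 (0.0537) or 2 (0.0566), or without non-degradable PEG replicate 1 (0.0548) or 3 (0.0735). In degradable PEG the adjusted p in edgeR was 0.0218 with the replicate block. It was 0.0397 without degradable PEG replicate 1 and 0.0419 without non-degradable PEG replicate 2.

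The fifth effector, Sesn2, which restrains mTORC1 when leucine is short, was at 41.8 to 49.4 CPM in Matrigel, 41.1 to 44.6 in non-degradable PEG and 41.0 to 45.8 in degradable PEG. Its log2 fold changes of -0.11 (95% interval -0.28 to 0.07) and -0.09 (-0.26 to 0.09) did not pass the test, although it is a target of the same branch as Chac1 and Trib3.

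**Figure D3:**
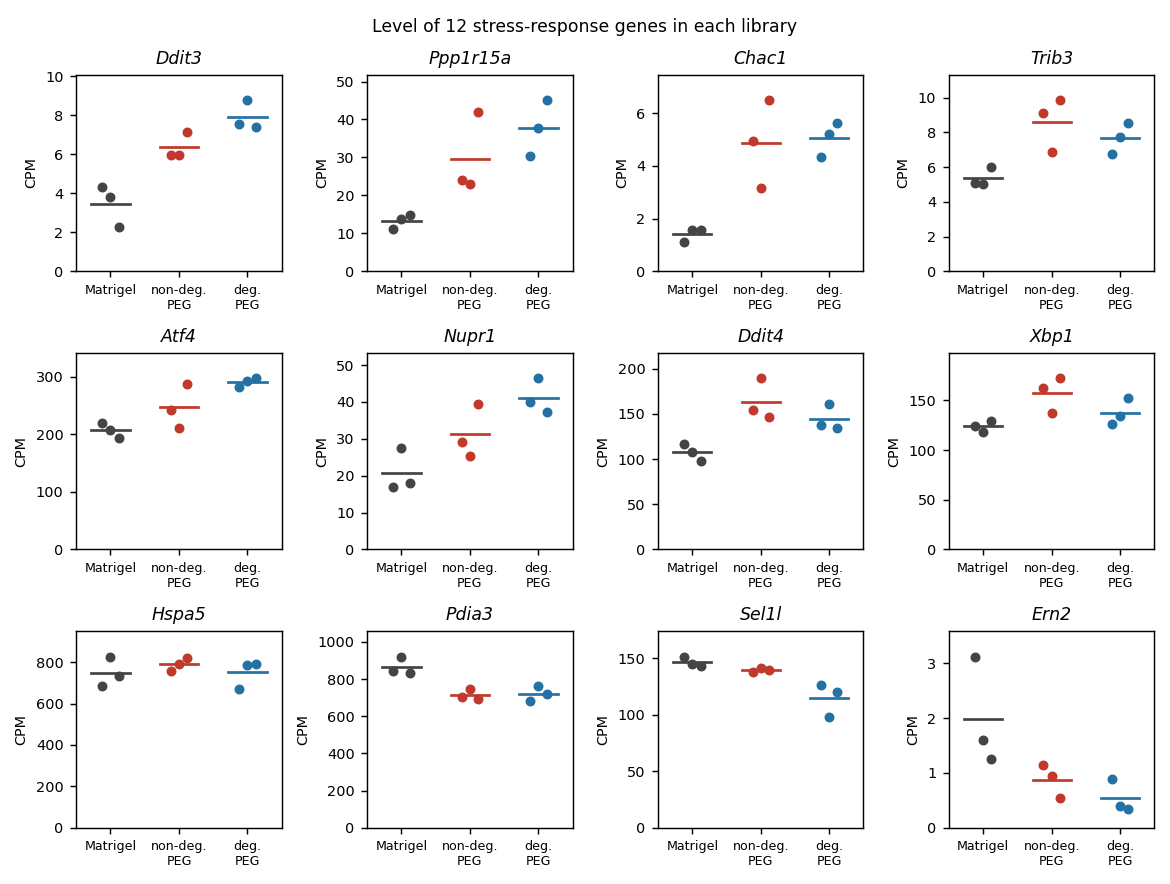
Level in CPM (vertical axes, each from 0) of 12 members in each library (points) with the mean of each gel (horizontal lines). Chac1, Ppp1r15a, Ddit3 and Ddit4 are higher in every PEG library than in any Matrigel library, Hspa5 overlaps between all gels, and Ern2 is highest in Matrigel.

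Among the 4 transcription factors of the stress response, 1 rose in non-degradable PEG (Ddit3) and 3 in degradable PEG (Ddit3, Nupr1 and Atf4). Of all tested genes, 9.71% and 7.42% rose. The list medians of the 4 were 0.42 and 0.74. Summed over the 4, the level was 233 to 266 CPM in Matrigel, 265 to 359 in non-degradable PEG and 354 to 370 in degradable PEG. Replicate 3 of non-degradable PEG was the highest of its group for Ddit3, Nupr1 and Atf4. It was also the highest for Chac1, Ppp1r15a and Herpud1.

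Atf4 (chr15:80255184-80257541, + strand) encodes the central factor of the integrated stress response, whose output is set mainly by translation and only in part by its RNA. It was at 220, 207 and 194 CPM in Matrigel, 242, 211 and 287 in non-degradable PEG, and 282, 293 and 297 in degradable PEG. Levels in degradable PEG were all above Matrigel, whereas replicate 2 of non-degradable PEG lay inside the Matrigel range. The log2 fold change in degradable PEG was 0.49 ± 0.101 (edgeR adjusted p = 0.00933). In non-degradable PEG it was 0.25 ± 0.101 and did not pass (edgeR adjusted p = 0.104), and without replicate 2 of that gel it did (0.0285).

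Ddit3 (CHOP; chr10:127290774-127296288, + strand), a factor raised in prolonged stress that itself raises Ppp1r15a, Trib3 and Chac1, was at 4.33, 3.81 and 2.29 CPM in Matrigel, 5.94, 5.97 and 7.17 in non-degradable PEG, and 7.57, 8.78 and 7.42 in degradable PEG. The 3 gels did not overlap with one another, in the order Matrigel, non-degradable PEG, degradable PEG. The difference between the 2 PEG gels did not pass (log2 fold change -0.32, edgeR adjusted p = 0.495). Against Matrigel the log2 fold changes were 0.88 ± 0.21 (edgeR adjusted p = 0.0166) and 1.19 ± 0.209 (edgeR adjusted p = 0.00371). The call in non-degradable PEG was lost without replicate 3 of that gel (edgeR adjusted p = 0.0676). Ddit3 had 104 to 355 counts per library and shares 68 bases with Mars on the opposite strand, which had up to 6400 counts. The strand setting used in counting is not given in the sources used here. Mars itself had log2 fold changes of 0.10 and 0.19, neither of which passed (edgeR adjusted p = 0.325 and 0.0782).

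Nupr1, a small chromatin protein that works with ATF4 and CHOP, was at 16.8, 27.5 and 18 CPM in Matrigel, 29.1, 25.4 and 39.5 in non-degradable PEG, and 39.9, 46.4 and 37.3 in degradable PEG. Only the degradable gel was clear of Matrigel replicate 2. The log2 fold change was 0.99 ± 0.196 in degradable PEG (edgeR adjusted p = 0.00778). It was 0.59 ± 0.196 in non-degradable PEG (edgeR adjusted p = 0.0599, and 0.0451 with the replicate block). That value was 0.0121 without Matrigel replicate 2 and 0.0399 without non-degradable PEG replicate 2. The fourth factor, Atf5, which is regulated by eIF2 in the way of Atf4 and acts in mitochondrial stress, was at 18.6 to 24.8 CPM in Matrigel, 21.8 to 30.0 in non-degradable PEG and 20.7 to 25.1 in degradable PEG, and overlapped throughout.

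The 14 ER chaperones and foldases fold proteins and hold unfolded ones in the ER. None rose in either PEG gel in the main fit, which had no replicate block, and in each comparison 1 fell (Pdia3 in both). Some alternatives without a block called Dnajb9 higher in both gels, as given below. With the replicate block in non-degradable PEG, Dnajb9 was higher (edgeR adjusted p = 0.0307) and Pdia4 also lower (0.0367). With the block in degradable PEG, Dnajb9 was higher (edgeR adjusted p = 0.0434), and Hsp90b1 (0.0297) and Pdia4 (0.0347) were also lower. Without the block, the list medians were -0.08 (non-degradable) and -0.12 (degradable). Summed over the 14, the level was 5239 to 6176 CPM in Matrigel, 5129 to 5429 in non-degradable PEG and 4692 to 5410 in degradable PEG. For the 13 uncalled members the 95% intervals lay between -0.37 and 0.50 on the log2 scale for the non-degradable gel and between -0.44 and 0.50 for the degradable one.

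Hspa5 (BiP, chr2:34771970-34777547, + strand) is the ER HSP70 that holds the sensors inactive and is the usual readout of ER stress. It was at 683, 827 and 734 CPM in Matrigel, 756, 790 and 821 in non-degradable PEG, and 672, 788 and 791 in degradable PEG. Replicate 1 was the lowest library of each gel and the 3 groups overlapped. The log2 fold change was 0.08 with a 95% interval of -0.12 to 0.27 in non-degradable PEG (edgeR adjusted p = 0.59), and the interval in degradable PEG was -0.19 to 0.20 (edgeR adjusted p = 0.98). These intervals exclude a change of the size seen for Chac1, Ppp1r15a or Ddit3.

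Pdia3, a disulfide isomerase that serves glycoproteins together with calnexin and calreticulin, was at 843, 921 and 830 CPM in Matrigel, 702, 747 and 695 in non-degradable PEG, and 679, 761 and 719 in degradable PEG. It was lower in all 6 PEG libraries than in any Matrigel library, by -0.27 ± 0.0713 on the log2 scale in both comparisons (edgeR adjusted p = 0.0237 and 0.0335). In non-degradable PEG the call was lost without Matrigel replicate 2 (0.101) and without non-degradable PEG replicate 1 (0.0802) or 3 (0.0943). In degradable PEG the call was lost in 6 of the 9 fits that left out 1 library, namely Matrigel replicate 1 (0.0701), 2 (0.147) or 3 (0.0598), degradable PEG replicate 1 (0.0694) or 3 (0.0889), and non-degradable PEG replicate 1 (0.0609).

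Dnajb9 (ERdj4), an HSP40 co-chaperone that is a classical target of spliced XBP1, was the chaperone with the highest estimate. Its levels were 14.7, 14.7 and 14.3 CPM in Matrigel, 18, 17.2 and 18.3 in non-degradable PEG, and 18.6, 15.6 and 19.1 in degradable PEG. Every PEG library was above the Matrigel libraries, but the log2 fold changes of 0.29 ± 0.0951 and 0.29 ± 0.0952 did not pass (edgeR adjusted p = 0.0563 and 0.0743). Both passed without degradable PEG replicate 2 (0.0236 and 0.0209), with the replicate block (0.0307 and 0.0434), and with upper-quartile scaling and in DESeq2, in all under 6 and 4 of the 16 alternatives.

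Of the remaining chaperones, Pdia4 was at 222 to 255 CPM in Matrigel, 198 to 214 in non-degradable PEG and 187 to 215 in degradable PEG, without overlap with Matrigel. Its log2 fold changes of -0.20 and -0.21 did not pass in the main fit (edgeR adjusted p = 0.1 and 0.102). Hsp90b1 (GRP94) and Calr, which with Hspa5 and Pdia3 had the highest mean CPM of the chaperones in Matrigel, had log2 fold changes of -0.13 and -0.13 in non-degradable PEG and -0.23 and -0.16 in degradable PEG, with overlapping groups. Canx (calnexin), Pdia6, the co-chaperones Dnajb11 and Dnajc3, and Sdf2l1 had estimates between -0.17 and 0.05. Hyou1 (GRP170), a nucleotide exchange factor of Hspa5, had 0.14 and 0.07. The secreted ER stress proteins Manf and Creld2 lay between -0.08 and 0.01. Manf overlaps Rbm15b on the same strand and Dcaf1 on the other, so its counts are less certain.

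The 3 members of ER-associated degradation did not move as 1 group. Sel1l, the scaffold of the HRD1 ubiquitin ligase, was at 151, 145 and 144 CPM in Matrigel, 138, 142 and 140 in non-degradable PEG, and 127, 98.1 and 120 in degradable PEG. It fell in degradable PEG (log2 fold change -0.35 ± 0.0873; edgeR adjusted p = 0.0238), and not in non-degradable PEG (-0.07; edgeR adjusted p = 0.629). Leaving out Matrigel replicate 1 (0.0844), 2 (0.0655) or 3 (0.0573) ended that call.

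Herpud1, a membrane protein that recruits the degradation complex, was at 44.5, 41.1 and 42.3 CPM in Matrigel, 46.0, 42.5 and 57.3 in non-degradable PEG, and 52.5, 55.1 and 52.5 in degradable PEG. The degradable gel was clear of Matrigel, with a log2 fold change of 0.32 ± 0.0998 that did not pass (edgeR adjusted p = 0.0575). It passed in the fits without non-degradable PEG replicate 2 (0.0412) or 3 (0.0135), which belong to neither group of that comparison. It also passed with upper-quartile scaling, with no filter, in DESeq2, with only the 2 groups compared and with the replicate block (0.041). Edem1, a lectin-like protein that directs misfolded glycoproteins to degradation, was at 69.0 to 78.0 CPM in Matrigel and 81.7 to 88.0 in non-degradable PEG, with a log2 fold change of 0.20 ± 0.0753 that did not pass (edgeR adjusted p = 0.0861, and 0.0395 without degradable PEG replicate 2).

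Of the sensors and their factor XBP1, 1 of 5 rose in non-degradable PEG (Xbp1) and 1 of 5 fell in degradable PEG (Ern2). Xbp1 (chr11:5520659-5525893, + strand) encodes the factor that IRE1 activates by splicing its RNA. Counts per gene do not tell the spliced from the unspliced form. It was at 125, 118 and 129 CPM in Matrigel, 163, 137 and 172 in non-degradable PEG, and 127, 134 and 153 in degradable PEG. The non-degradable gel was above Matrigel in every library (log2 fold change 0.35 ± 0.0957; edgeR adjusted p = 0.031), and the degradable gel overlapped it (0.15 ± 0.0957; edgeR adjusted p = 0.336). The call was lost without Matrigel replicate 1 (0.0834), 2 (0.096) or 3 (0.0588) and without non-degradable PEG replicate 1 (0.0971) or 3 (0.13).

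Ern2 (IRE1-beta; chr7:122169893-122186207, - strand) is the form of IRE1 known from goblet cells, where it supports mucin folding. It had only 13 to 122 counts per library. It was at 3.12, 1.60 and 1.25 CPM in Matrigel, 1.14, 0.94 and 0.55 in non-degradable PEG, and 0.894, 0.396 and 0.336 in degradable PEG. All PEG libraries were below all Matrigel libraries. The log2 fold change was -1.87 ± 0.445 in degradable PEG (edgeR adjusted p = 0.0196), a call that was lost without Matrigel replicate 1 (0.0701) and without degradable PEG replicate 2 (0.0777) or 3 (0.0755). In non-degradable PEG it was -1.18 ± 0.42 (edgeR adjusted p = 0.0747; 0.00402 with the replicate block and 0.044 without degradable PEG replicate 1).

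Goblet cell markers moved with Ern2. Of 8 listed, 4 were lower in the non-degradable gel and 5 in the degradable one, where 7.13% and 4.79% of all tested genes were. None of the 8 was higher, and all 8 had counts. Their summed level was 1052, 589 and 575 CPM in Matrigel, 258, 230 and 190 in non-degradable PEG, and 200, 150 and 136 in degradable PEG. The defining factor Spdef was at 1.81 to 6.09, 0.527 to 1.08 and 0.388 to 0.894 CPM, and the mucin Muc2 at 2.18 to 6.17, 1.31 to 3.17 and 0.724 to 1.39 CPM. Within each gel, the libraries stood in the same order by goblet markers as by Ern2. Markers of other differentiated cells moved too, so the shift was not limited to goblet cells. Of 10 tested Paneth markers, 7 were lower in each PEG gel, and 1 was higher in the non-degradable gel (Pla2g2a) and 2 in the degradable gel (Pla2g2a and Mmp7). Their sum was 974 to 1779 CPM in Matrigel, 476 to 685 in non-degradable PEG and 655 to 728 in degradable PEG. Of 6 tested enteroendocrine markers 5 were lower in each gel, with sums of 89.4 to 150, 17.1 to 23.7 and 24.2 to 35.3 CPM, and both tested tuft markers were lower in each. The stem cell list summed to 3315 to 3531, 2558 to 2570 and 2979 to 3153 CPM, and the enterocyte list to 289 to 421, 286 to 416 and 181 to 208 CPM. The part of these cell types in the values of Ern2 and of the chaperones was not tested.

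The other sensors passed the test in neither comparison. Ern1 (IRE1-alpha) was at 47.7 to 53.5 CPM in Matrigel, 54.5 to 60.0 in non-degradable PEG and 40.3 to 57.6 in degradable PEG. Atf6, which is cut in the Golgi to free a transcription factor, was at 63.4 to 71.3, 71.3 to 79.9 and 51.4 to 70.2 CPM. Eif2ak3 (PERK) was at 46.1 to 47.9, 48.7 to 54.2 and 49.3 to 55.9 CPM, above Matrigel in every PEG library, and its log2 fold changes of 0.11 (95% interval -0.05 to 0.27) and 0.17 (0.02 to 0.33) did not pass (edgeR adjusted p = 0.31 and 0.146).

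The 5 genes of serine, one-carbon and asparagine synthesis are ATF4 targets that also serve growth. None of the 5 was called in either PEG gel in the main fit. Their estimates ran from -0.10 to 0.11 in the non-degradable gel and from -0.06 to 0.23 in the degradable gel, with 95% intervals that all lay between -0.26 and 0.38. Asns, which makes asparagine and holds the CARE match shown above, was at 124, 116 and 119 CPM in Matrigel, 131, 118 and 138 in non-degradable PEG, and 118, 123 and 123 in degradable PEG. Phgdh and Psat1, the first steps of serine synthesis, overlapped between the gels, as did Shmt2, the mitochondrial enzyme that passes serine carbon to folate. Mthfd2, the next mitochondrial folate enzyme, was at 58.8 to 65.6 CPM in Matrigel and 70.2 to 77.1 in degradable PEG, and its 0.23 ± 0.0714 did not pass (edgeR adjusted p = 0.0629, and 0.0385 without degradable PEG replicate 1).

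Between the 2 PEG gels no member was called, against 0.814% of tested genes higher and 0.464% lower in the non-degradable gel. DESeq2 also called none, and 7 of the 36 (19.4%) had an unadjusted p under 0.05 in edgeR, as did 14.8% of all tested genes. The estimates ran from -0.39 (Nupr1) to 0.68 (Ern2), with a median of 0.01. For Chac1 the 95% interval of the difference was -0.58 to 0.47, for Ddit3 -0.76 to 0.13, for Ppp1r15a -0.83 to 0.13, for Atf4 -0.46 to -0.01 and for Xbp1 -0.02 to 0.40. Differences within these intervals could not be told from none after adjustment over all genes, with 3 libraries each. Genes called in 1 gel against Matrigel only, such as Xbp1, Trib3, Nupr1, Atf4, Sel1l and Ern2, were thus not shown to differ between the PEG gels.

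Compared per length of the gene's exons, the levels of chaperones and stress-response genes were interleaved, with the chaperone Dnajb9 at 5.70 RPKM (reads per kilobase of exon, on the CPM scale) in Matrigel, below Nupr1 at 8.26. In Matrigel the chaperones Calr, Pdia3, Hsp90b1, Hspa5 and Canx had the highest mean levels, at 348, 275, 244, 177 and 151 RPKM. Atf4 stood among the chaperones at 87.8 RPKM and Ddit4 at 61.3. Ern2 (0.672), Chac1 (0.869), Ddit3 (2.03) and Trib3 (2.53) had the lowest. In degradable PEG Atf4 was at 123 RPKM, Ppp1r15a at 12.9 against 4.5 in Matrigel, Ddit3 at 4.63 and Chac1 at 3.09. Of the members that rose, Atf4, Ddit4 and Xbp1 (38.1 RPKM in Matrigel) stood at the level of chaperones such as Dnajc3 (23.8) and Hyou1 (31.4) or above it.

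**Figure D4:**
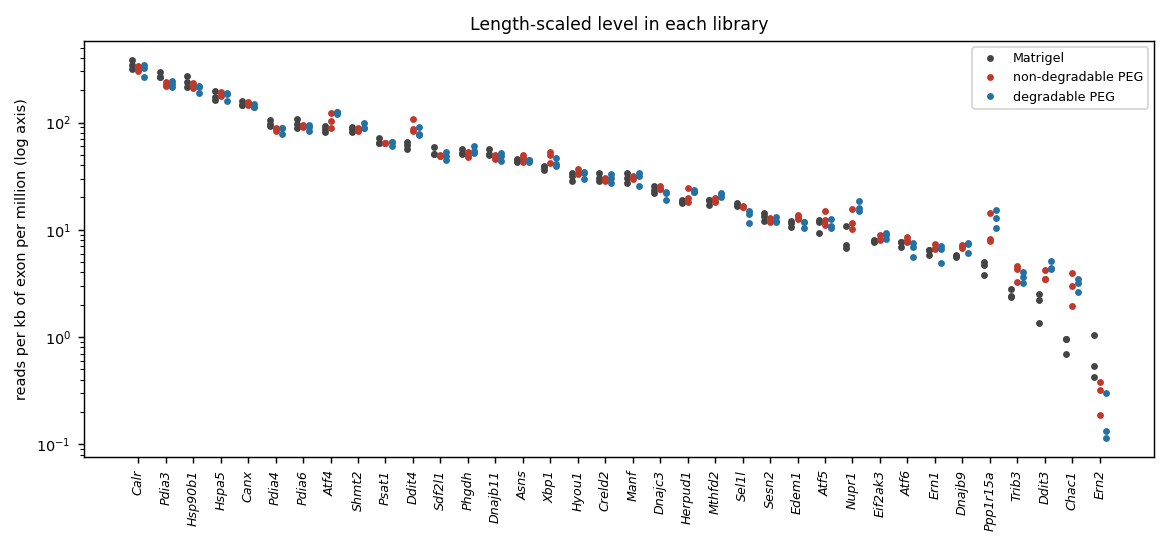
Level of each member per kilobase of exon (RPKM, log axis) in each library (points, coloured by gel), ordered by the mean in Matrigel. Calr, Pdia3 and Hsp90b1 are at the top and Ern2, Chac1 and Ddit3 at the bottom.

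Further genes of the same pathways were read from 8 lists of 134 genes, of which 130 were tested (Erp27, Derl3, Srp54a and Fgf21 were not). In non-degradable PEG 19 of the 130 rose and 9 fell, and in degradable PEG 10 rose and 3 fell, with medians of 0.02 and -0.01. That is 21.5% called against 16.8% of all tested genes, and 10% against 12.2%, so as a whole these lists lay near the background. Among ATF4-linked regulators, 6 of 15 rose in each gel and none fell, with medians of 0.31 and 0.40. Stc2, a secreted glycoprotein of the ER stress response, was at 9.6 to 12 CPM in Matrigel, 39.5 to 47.7 in non-degradable PEG and 26.3 to 29.5 in degradable PEG (log2 fold change 1.99 ± 0.105 and 1.38 ± 0.104; edgeR adjusted p = 2.89e-06 and 4.06e-05). Gdf15, a stress cytokine that ATF4 and CHOP raise, was at 10.8 to 17.4, 34.8 to 51.4 and 53.7 to 60.4 CPM (1.59 ± 0.18 and 2.07 ± 0.181; edgeR adjusted p = 2.61e-04 and 9.38e-05). Both were clear of Matrigel in all 6 PEG libraries. Ndrg1, which also answers to low oxygen, rose in non-degradable PEG (1.87 ± 0.258; edgeR adjusted p = 8.22e-04), and the lipoprotein receptor gene Vldlr was the third by size among those called in degradable PEG (0.77 ± 0.212; edgeR adjusted p = 0.0373).

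Of 13 tRNA synthetase and tRNA export genes, which ATF4 raises together, 3 rose in non-degradable PEG (Cars 0.36, Gars 0.34 and Nars 0.23) and 2 in degradable PEG (Cars 0.39 and Gars 0.37), with medians of 0.10 and 0.11. Of 20 genes of amino acid transport and synthesis, 5 rose and 3 fell in non-degradable PEG, and 1 rose and 3 fell in degradable PEG. The members that moved went both ways. The glycine transporter Slc6a9 (0.53) and the neutral amino acid transporter Slc1a4 (0.36) rose in non-degradable PEG. Cth, which makes cysteine from cystathionine, fell in both gels (-0.50 ± 0.0813 and -0.75 ± 0.0817; edgeR adjusted p = 0.00205 and 2.43e-04). The mitochondrial folate enzyme Aldh1l2 (-0.93 ± 0.21; edgeR adjusted p = 0.0153) and the glutamine transporter Slc38a2 (-0.35) fell in degradable PEG.

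On the ER side, the largest difference was in Ero1l, the oxidase that supplies disulfide bonds and is also raised by low oxygen. It was at 69.5 to 98.5 CPM in Matrigel, 313 to 529 in non-degradable PEG and 169 to 303 in degradable PEG (log2 fold change 2.23 ± 0.24 and 1.38 ± 0.234; edgeR adjusted p = 2.08e-04 and 0.00309). The other 16 tested genes of ER folding and oxidation gave 2 higher and 2 lower in the non-degradable gel and none in the degradable gel, and those higher were the peptidyl-prolyl isomerase gene Fkbp11 (0.48) and the disulfide isomerase gene P4hb (0.32). Of 17 further genes of ER-associated degradation none was called in either gel, and of 21 genes of translocation and glycosylation 1 was (Sec62, -0.22 in non-degradable PEG). Among 13 sensors and their processing genes, 2 rose and 3 fell in non-degradable PEG and none was called in degradable PEG. Those that rose were Creb3l3, an ATF6 relative (1.55 ± 0.346; edgeR adjusted p = 0.0121), and Wfs1, an ER membrane protein (0.64 ± 0.126; edgeR adjusted p = 0.00615), and the ATF6 homologue Atf6b (-0.25) was among those that fell. Of 14 genes of the eIF2 kinases and the eIF2 cycle none was called in either gel. Between the PEG gels only Creb3l3 (2.16 ± 0.365; edgeR adjusted p = 0.0214) and Stc2 (0.61 ± 0.0999; edgeR adjusted p = 0.0189) of the 130 were called, both higher in the non-degradable gel.

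Many of the smaller differences were near the threshold and passed it only with all 9 libraries or most of them. The count of 28 called in non-degradable PEG was between 9 and 33 when 1 library was left out, and the count of 13 in degradable PEG between 7 and 16. Fkbp11, P4hb, Sec62, Atf6b, Slc6a9, Slc1a4, Cars and Nars each lost the call in non-degradable PEG without any of several libraries, with edgeR adjusted p up to 0.104, 0.121, 0.12, 0.0829, 0.163, 0.0904, 0.158 and 0.13. Their estimates kept their sign. On the log2 scale they ran from -0.27 to -0.24 for Atf6b, -0.25 to -0.19 for Sec62, 0.43 to 0.52 for Fkbp11 and 0.20 to 0.27 for Nars. The ranges were wider for P4hb (0.25 to 0.39), Slc6a9 (0.39 to 0.63), Cars (0.28 to 0.43) and Slc1a4 (0.29 to 0.45). Creb3l3 (0.0527) and Gars (0.0515) lost it without non-degradable PEG replicate 3. In degradable PEG, Aldh1l2 lost the call without degradable PEG replicate 2 (0.0611), and Cars, Slc38a2 and Vldlr lost it without several libraries, with edgeR adjusted p up to 0.12, 0.0911 and 0.135. Between the PEG gels, Creb3l3 and Stc2 lost the call without degradable PEG replicate 2 (0.117 and 0.0952) or non-degradable PEG replicate 1 (0.0837 and 0.0909), and Creb3l3 without degradable PEG replicate 1 (0.0524). Ero1l, Stc2, Gdf15 and Cth in both gels, and Ndrg1 and Wfs1 in non-degradable PEG, stayed called against Matrigel in all 9 of these fits. Further genes that did so, not named above, included the ATF4-linked regulators Vegfa in both gels and Eif4ebp1 in non-degradable PEG, all higher in PEG.

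**Figure D5:**
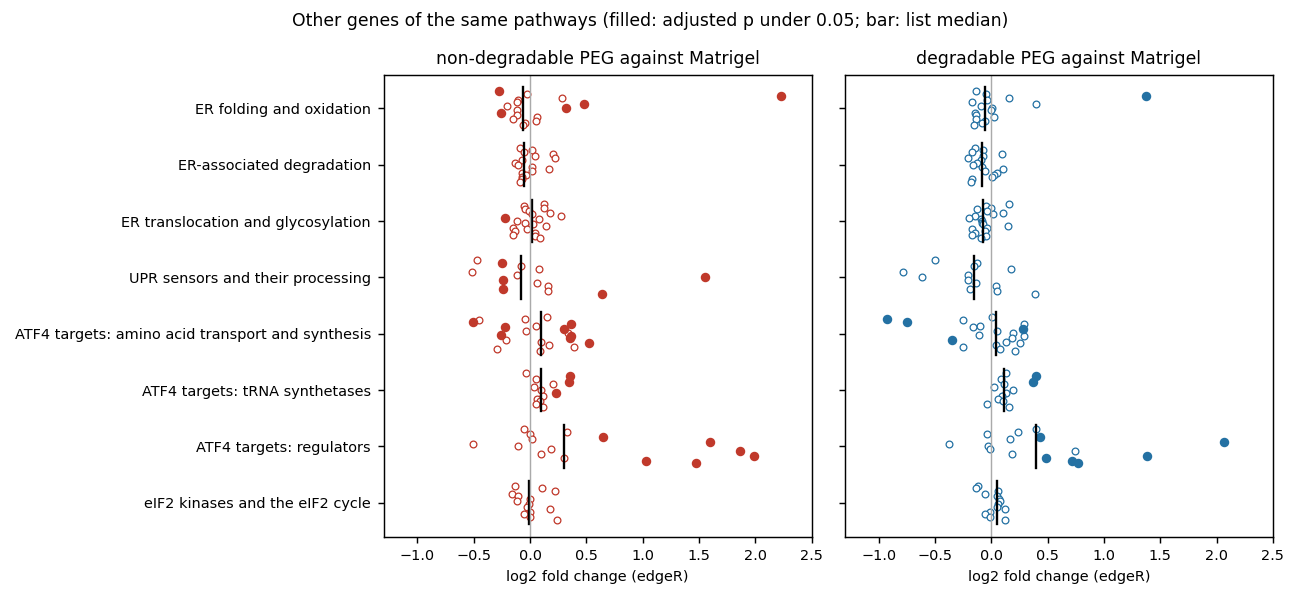
Log2 fold change of the other pathway genes (points, by list) in non-degradable and degradable PEG against Matrigel, with the list median as a vertical bar; filled points passed an adjusted p of 0.05. ATF4-linked regulators have the highest medians, 0.31 and 0.40, and the medians of the other lists lie between -0.15 and 0.11.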

How the data were processed

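The authors deposited counts per gene for each of the 9 libraries, in separate tables. Per the submitters' processing notes, cutadapt 1.3, STAR 2.4.2a, HTSeq 0.6.1 and the genome GRCm38 were used, and per the labels' protocols the kit was a stranded mRNA kit. The annotation release, the strand setting and the treatment of nearly identical gene copies have no statement in the labels. A total of 16 members overlap another annotated gene, 12 of them one on the opposite strand. Reads with more than 1 alignment stand in a separate tally row, so copies of a gene elsewhere can lower its count.

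From these counts, the 5 tally rows were removed (reads with no feature were 7.29% to 11.2% of a library, ambiguous reads 1.09% to 1.16%). Symbols, coordinates and exon lengths came from GENCODE M21 and matched 46005 of 46517 genes. The edgeR function filterByExpr kept 14870 genes. Libraries were scaled by TMM, and a joint quasi-likelihood model in edgeR, with a mean for each gel and all 9 libraries, gave the 3 contrasts and the test over all gels, with 6 residual degrees of freedom. P-values were adjusted by Benjamini-Hochberg over all tested genes. The standard error is the size of the log2 fold change divided by the root of its F statistic. CPM used TMM-scaled library sizes. The biological coefficient of variation was 11.0%. The fit was tested on simulated data.

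The members and lists were chosen with earlier results of these data known. All 36 members were named, with values per library for those called in any comparison and for Hspa5, Xbp1, Atf4 and Ddit3. Of each further list the 3 called genes with the largest absolute log2 fold change were named. Dnajb9, Herpud1, Asns, Nupr1 in the gel where it was not called, and Mars were given in more detail after their values were seen. No 2 libraries were duplicates.

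Same-numbered libraries of non-degradable PEG and Matrigel deviated together (r = 0.18 to 0.33 over genes in the 3 pairs). For degradable PEG and Matrigel r was 0.07 to 0.26, and for the 2 PEG gels 0.02 to 0.51. The main fit had no replicate block in any comparison, and values are from it unless the block is named. The blocked fit was run as an alternative. The labels do not say what a number marks. Alternatives were RLE and upper-quartile scaling, no filter, a mean of at least 10 CPM, DESeq2, only the 2 groups compared, the replicate block, and leaving out each library. Versions were edgeR 4.0.16 (with limma 3.58.1), DESeq2 1.42.0 and data.table in version 1.17.8, run in R 4.3.3.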

Additional observations from a re-analysis of the deposited data

How the results depend on the processing

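No call on a member or further gene changed sign under any alternative. Chac1 and Ppp1r15a in both PEG gels, Ddit4 in non-degradable PEG, and Ddit3, Nupr1 and Atf4 in degradable PEG passed under every alternative that tested them. Over 572 pairs of member and alternative per comparison, calls were lost in 13 for non-degradable PEG, 19 for degradable PEG and 0 between the PEG gels, and gained in 20, 23 and 0. With a mean of at least 10 CPM, which removes Chac1, Ddit3, Trib3 and Ern2, the genes called were 1511 in non-degradable PEG, 948 in degradable PEG, 91 between the PEG gels and 1362 over all gels, with 5 members in the last and 1 further pathway gene between the PEG gels. Without a filter, 521 genes and 10 further pathway genes were called between the PEG gels. DESeq2 called 509 genes and 7 further pathway genes there, and 20 of the latter in degradable PEG. With the replicate block, 3877 genes and 11 members were called in non-degradable PEG, 2783 genes, 15 members and 20 further pathway genes in degradable PEG, 542 genes, 0 members and 7 further pathway genes between the PEG gels, and 3894 genes over all gels; the cause was not tested.

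For degradable PEG, same-numbered libraries correlated with Matrigel at r = 0.07 to 0.26, with 2 of 3 pairs over 0.1, and all 6 libraries correlated best with their own number; between the PEG gels it was r = 0.02 to 0.51 and 5 of 6. In non-degradable PEG against Matrigel all 3 pairs were over 0.1 and all 6 libraries correlated best with their own number. Signs of pairing were thus present for degradable PEG against Matrigel too. There the block gave 15 members called against 9 without it, gaining Dnajb9, Herpud1, Hsp90b1, Mthfd2, Pdia4 and Trib3. In non-degradable PEG the block changed no member's call beyond the 4 named above.

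Leaving out 1 library gave 1189 to 3247 genes and 3 to 9 members in non-degradable PEG, 1086 to 2395 genes and 6 to 11 members in degradable PEG, 19 to 242 genes and 0 members between the PEG gels, and 1507 to 3109 genes and 5 to 11 members over all gels. Of the further pathway genes, 9 to 33, 7 to 16 and 0 to 4 were called. The lowest counts between the PEG gels came without degradable PEG replicate 2, and 5 members over all gels without any 1 of the Matrigel libraries; fewer libraries were then tested. The alternatives for the further pathway lists were chosen after seeing the data. With 3 libraries per gel and a median standard error of 0.11 on the log2 scale in non-degradable PEG, changes of the size of most chaperone estimates were not detectable.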
